A study of Mus musculus with 27 samples.

Results

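The 8 genes described here encode chemokines of monocytes and 1 of their receptors: the ligands Ccl2, Ccl7, Ccl8, Ccl3, Ccl4, Ccl5 and Cxcl14, and the receptor Ccr2. They were taken by gene name from a table of 43460 names, and all 8 were among the 17821 names with enough reads to be tested. RNA was sequenced from epididymal white adipose tissue (a visceral depot attached to the epididymis) of C57BL/6N mice carried through weight gain, loss and regain, in 27 libraries that formed 9 groups of 3. The gain8 group was 13 weeks old and had been fed for 8 weeks on a high-fat diet in which fat gave 60% of the energy. The loss group, 17 weeks old, had returned to normal diet for 4 weeks after the high-fat diet, within a treatment period of 12 weeks. Mice of 21 weeks formed 4 groups with a treatment period of 16 weeks. Of these, gain4 had the high-fat diet for 4 weeks, regain was put back on it for 4 weeks after weight loss, maintenance had normal diet for 8 weeks after the high-fat diet, and control16 had normal diet for 16 weeks. The groups control8 and control12, of 13 and 17 weeks, had normal diet for 8 and 12 weeks, and the initial group was taken at 5 weeks. The labels name no diet for the initial group and none for the weeks before the high-fat diet in gain4. All mice carried the same strain background and no transgene or drug is named. The labels number the replicates without saying that each is a separate animal, so the p-values measure only the spread between these samples.

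Chemokines are small secreted proteins that guide leukocytes by binding receptors coupled to G proteins. Ccl2, Ccl7 and Ccl8 belong to the monocyte chemoattractant proteins, and Ccl2 and Ccl7 draw monocytes that carry Ccr2 out of the bone marrow and into tissue. Ccl3, Ccl4 and Ccl5 act on macrophages, T cells and other leukocytes. Cxcl14 is a CXC chemokine made by many epithelial and stromal tissues. In obese fat, Ccl2 and Ccr2 are best known for their part in the recruitment of the macrophages that gather around adipocytes.

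The feature that divides the ligands is the spacing of the first pair of cysteines in the mature protein, and the coding bases around it are shown for 6 of the 7 ligands, read from GENCODE transcripts annotated on GRCm38. The codons of both cysteines are in capitals, 5′ to 3′ on the coding strand.
Ccl2: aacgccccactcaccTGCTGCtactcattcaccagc
Ccl7: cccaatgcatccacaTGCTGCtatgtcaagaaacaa
Ccl8: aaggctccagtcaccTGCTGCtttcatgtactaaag
Ccl4: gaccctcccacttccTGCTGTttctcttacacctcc
Ccl5: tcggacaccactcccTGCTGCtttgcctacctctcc
Cxcl14: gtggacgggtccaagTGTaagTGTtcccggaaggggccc
In the 5 CC ligands shown the codons adjoin and lie in exon 2, whereas in Cxcl14 another codon stands between them and the stretch spans exons 1 and 2. The CC stretches run over chr11:82036491-82036526 (+) for Ccl2, chr11:82046523-82046558 (+) for Ccl7, chr11:82116041-82116076 (+) for Ccl8, chr11:83663467-83663502 (+) for Ccl4 and chr11:83529227-83529262 (-) for Ccl5. That of Cxcl14 runs over chr13:56295900-56296116 (-) with its intron.

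The genes fall into groups along the genome. Ccl2 (chr11:82035571-82037453) and Ccl7 (chr11:82045712-82047525) are 8258 bases apart, and Ccl8 (chr11:82115185-82116799) follows 67659 bases beyond Ccl7. Ccl5 (chr11:83525778-83530518), Ccl3 (chr11:83647844-83649355) and Ccl4 (chr11:83662584-83664683) lie further along chromosome 11, with 13228 bases between Ccl3 and Ccl4. Cxcl14 (chr13:56288643-56296551) is alone among the members on chromosome 13, and Ccr2 (chr9:124101950-124113557) lies on chromosome 9. No member shares exonic bases with another annotated gene, although the span of Ccl2 overlaps that of the predicted gene Gm17268. The coding sequences of Ccl2 and Ccl7 match at 72.41% of 290 aligned bases with a longest shared run of 11 bases, and those of Ccl7 and Ccl8 share a run of 17. Reads of Ccr2 that also match another gene may be assigned to either, and the Ccr2 values carry that uncertainty.

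Libraries held 26479773 to 32728594 counts. Levels are CPM, counts scaled to library size with TMM factors, and fold changes are edgeR's with their SE. P-values are Benjamini-Hochberg adjusted over all 17821 names within a comparison, and calls were made at an adjusted p below 0.05. Groups were compared in bulk tissue, in which fewer cells of a type and less RNA per cell cannot be told apart. Some libraries stood apart. Maintenance library 3 carried 8632 CPM of liver transcripts, against 205 to 1537 CPM in the other 26 libraries, loss library 1 had the highest macrophage marker sum, and control12 library 3 had 227 CPM of transcripts of efferent duct and ciliated epithelium. Control8 library 2 had 146 CPM of those transcripts, and gain8 library 2 had 83.0 CPM of sperm transcripts. Counts of Lars2, a gene whose annotated span includes bases resembling ribosomal RNA, divided the libraries into 15 with 1325 to 4104 CPM and 12 with 97.5 to 212 CPM, across groups.

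Against age-matched controls, most of the member genes were called higher in gain8, loss and regain, 1 was in gain4, and maintenance gave no call. In gain8, 6 of the 8 passed the test and all 6 rose, where 21.5% of all tested names were called and 12.0% were called higher. Without gain8 library 2, control8 library 2 or control8 library 3, the number was 5, since Ccl5 lost its call. All 8 were higher in every gain8 library than in every control8 library, as 26.5% of all names were. In loss 5 rose, with 20.0% of all names called and 11.8% called higher, and the same 5 lay above all control12 libraries, as 20.0% of names did. In regain 6 rose, with 21.7% called and 12.5% called higher, and 6 members, 5 of them called, lay above all control16 libraries, as 23.1% of names did. In gain4 only Ccl2 was called, with 5.82% called and 3.80% called higher, and 2 members, Ccl2 and Ccl4, lay above all controls, as 14.1% of names did. In maintenance 0 members were called by edgeR. The background there was also 0.00%, although 3633 names and 1 member, Ccr2, had an unadjusted p under 0.05 and DESeq2 called that member. The median log2 fold change of the 8 members was 2.24 in gain8, 2.71 in loss, 1.12 in gain4, 2.44 in regain and 0.16 in maintenance, where the medians of all names lay between -0.04 and 0.02. The gain4, regain and maintenance values all use the same control16 libraries. Ccl2, Ccl3, Ccl4 and Ccl7 were called in each of gain8, loss and regain, the other members in 1 or 2 of them.

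**Figure D1:**
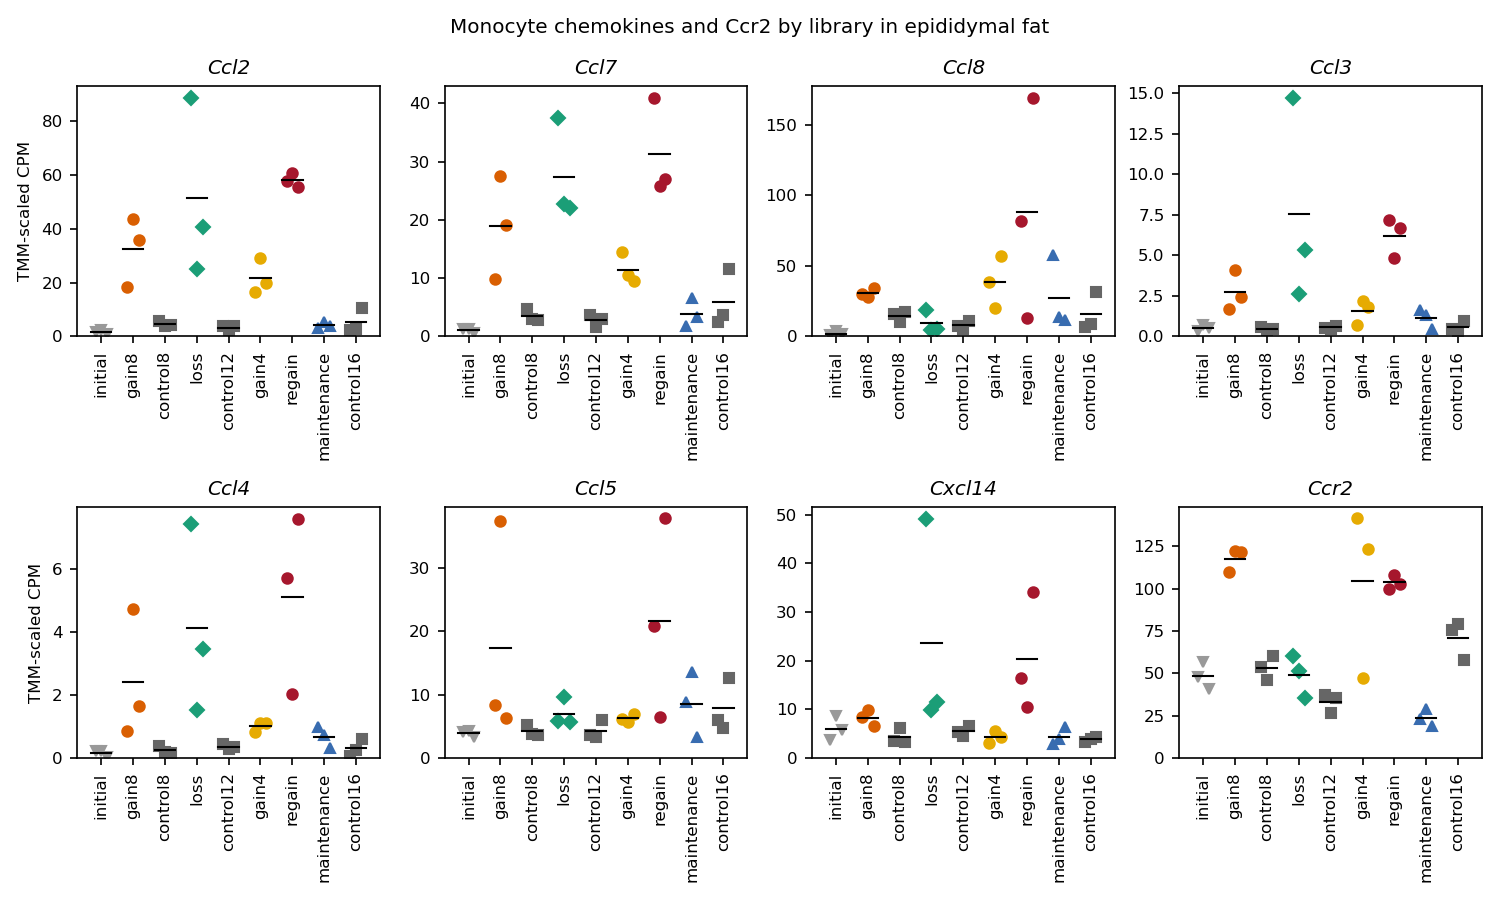
TMM-scaled CPM of each of the 8 members on linear axes that start at 0, in all 27 libraries. Points are libraries, coloured by group, and bars are group means. Ccl2 sits between 55.6 and 60.9 CPM in the 3 regain libraries, above the 2.40 to 10.7 CPM of control16, and Ccr2 is lowest in maintenance.

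Ccl2, the main ligand of Ccr2, had the highest mean in regain. It reached 58.0, 60.9 and 55.6 CPM in regain, against 2.40, 2.80 and 10.7 CPM in control16. The groups did not overlap, and the regain libraries were close together while control16 library 3 stood above the other two. The log2 fold change was 3.45 ± 0.52 (adjusted p = 0.000105), and 4.45 without control16 library 3. In loss Ccl2 had 88.8, 25.1 and 40.7 CPM, against 3.83, 2.37 and 3.71 CPM in control12. All loss libraries lay above all controls, library 1 most, and the log2 fold change of 3.96 ± 0.54 (adjusted p = 5.3e-05) became 3.31 without loss library 1. In gain8 it had 18.4, 43.7 and 36.0 CPM, against 5.83, 3.90 and 4.33 CPM in control8, a log2 fold change of 2.80 ± 0.51 (adjusted p = 0.000716). In gain4 it had 16.4, 29.3 and 19.7 CPM, also clear of control16. The log2 fold change of 2.03 ± 0.50 (adjusted p = 0.0250) lost its call without control16 library 1 (1.70), control16 library 2 (1.73) or gain4 library 2 (1.76), and was 3.09, still called, without control16 library 3. A model of the 2 compared groups alone gave no call either (2.03, adjusted p = 0.154).

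In maintenance Ccl2 had 3.24, 5.28 and 3.75 CPM, within the range of control16. Against loss, the state that precedes it on the same diet, Ccl2 was lower by 3.65 ± 0.53 on the log2 scale (adjusted p = 0.000143), or by 3.0 without loss library 1. A model of maintenance and loss alone called 0 members (Ccl2 -3.60, adjusted p = 0.0803). Regain lay above maintenance by 3.82 ± 0.53 (adjusted p = 4.4e-05). In the initial group Ccl2 had 1.74, 2.30 and 1.01 CPM, below all 3 control8 libraries, but the log2 difference of control8 over initial, 1.48 ± 0.52, did not pass the test (adjusted p = 0.169). Ordered by mean, the groups ran regain, loss, gain8, gain4, control16, control8, maintenance, control12 and initial. Neighbours in that order overlapped, save that gain4 lay clear of control16 and control12 clear of initial.

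Ccl7, a neighbour of Ccl2 that also signals through Ccr2, was called against controls in gain8, loss and regain. In regain it had 41.0, 25.8 and 27.1 CPM, against 2.51, 3.72 and 11.5 CPM in control16. The groups were apart, with a log2 fold change of 2.40 ± 0.52 (adjusted p = 0.00233) that was 3.30 without control16 library 3. In loss it had 37.4, 22.8 and 22.0 CPM, against 3.64, 1.60 and 2.96 CPM in control12, a change of 3.32 ± 0.55 (adjusted p = 0.000261). In gain8 it had 9.92, 27.6 and 19.2 CPM, against 4.72, 3.01 and 2.82 CPM in control8, a change of 2.43 ± 0.52 (adjusted p = 0.00277). The lowest gain8 library was still above the highest control. In gain4 the values of 14.4, 10.5 and 9.44 CPM overlapped control16, where library 3 reached 11.5 CPM. That change, 0.95 ± 0.50, was not called (adjusted p = 0.247), and it was 1.90 (adjusted p = 0.0283) without control16 library 3. Maintenance libraries had 1.73, 6.59 and 3.40 CPM, lower than loss by 2.80 ± 0.53 on the log2 scale (adjusted p = 0.000918), and by 3.41 without maintenance library 2. Regain exceeded maintenance by 2.99 ± 0.54 (adjusted p = 0.000401), or by 3.60 without maintenance library 2. The initial libraries held 0.639 to 1.35 CPM. Its group order was that of Ccl2, except that maintenance stood above control8, and only control12 and initial were neighbours without overlap. Across the 27 libraries, which share the scaling and the groups, log2 CPM of Ccl2 and Ccl7 had a Pearson correlation of 0.970, the highest of the 28 pairs of members.

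Ccl8, the third of these monocyte chemoattractants, was called in regain only among the comparisons with controls. Its spread within groups was the widest of the 8 members, 1.05 (SD of log2 CPM), against 0.368 for Ccr2. In regain it had 81.5, 13.2 and 169 CPM, against 6.96, 8.98 and 31.5 CPM in control16. The groups overlapped, since regain library 2 lay below control16 library 3. The log2 fold change of 2.47 ± 0.80 was called (adjusted p = 0.0309), but not without control16 library 1 (2.13), control16 library 2 (2.20), regain library 1 (2.54) or regain library 3 (1.58), and it was 3.43 without control16 library 3. The calls also ended in a model of regain and control16 alone (2.45, adjusted p = 0.103) and with limma on the authors' FPKM at a pseudocount of 1 (2.17, adjusted p = 0.0522) or 0.1 (2.21, adjusted p = 0.0541).

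In loss, where Ccl2 and Ccl7 were high, Ccl8 was at 18.7, 4.27 and 5.23 CPM, against 7.55, 5.04 and 11.0 CPM in control12. The groups overlapped and the log2 fold change was 0.25 ± 0.78 (adjusted p = 0.849). In gain8 its 30.4, 27.8 and 34.0 CPM lay above the 15.6, 10.4 and 17.6 CPM of control8, with a log2 fold change of 1.08 ± 0.77 that was not called (adjusted p = 0.328). A model of gain8 and control8 alone did call it (1.07, adjusted p = 0.00724). In gain4 it had 38.9, 20.1 and 56.8 CPM, a log2 fold change of 1.29 ± 0.77 over control16 (adjusted p = 0.311). In maintenance it had 57.3, 13.5 and 11.4 CPM, within the range of control16 but for library 1. Every loss library lay below every gain8 library, as was so for Ccr2 and for 8.72% of all names, by 1.71 ± 0.79 on the log2 scale, without passing the test (adjusted p = 0.373). Regain exceeded loss by 3.22 ± 0.83 (adjusted p = 0.176), a difference that DESeq2 called (3.23, adjusted p = 0.00424). The initial group had 0.905, 3.58 and 1.48 CPM. Ordered by mean, the groups ran regain, gain4, gain8, maintenance, control16, control8, loss, control12 and initial, and all neighbours overlapped save control12 and initial.

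Ccl3 and Ccl4, macrophage inflammatory proteins, were called in gain8, loss and regain, at low counts in the controls. Ccl3 had 14.7, 2.62 and 5.33 CPM in loss, against 0.542, 0.458 and 0.658 CPM in control12. Every loss library lay above every control, and library 1 was the highest of all 27. The log2 fold change was 3.76 ± 0.62 (adjusted p = 0.00028), and 2.83 without loss library 1. In regain Ccl3 had 7.15, 4.81 and 6.66 CPM, against 0.449, 0.307 and 0.980 CPM in control16, a change of 3.41 ± 0.61 (adjusted p = 0.00047), or 4.00 without control16 library 3. In gain8 it had 1.67, 4.11 and 2.40 CPM, against 0.586, 0.369 and 0.436 CPM in control8, a change of 2.55 ± 0.60 (adjusted p = 0.00506). Both pairs of groups were apart. Gain4, at 0.701, 2.17 and 1.81 CPM, overlapped control16 (1.42 ± 0.59, adjusted p = 0.139), and maintenance, at 1.62, 1.31 and 0.442 CPM, overlapped it too (0.96 ± 0.59, adjusted p = 0.371). Maintenance was lower than loss by 2.73 ± 0.59 (adjusted p = 0.00236), a value that was -1.81 without loss library 1. The initial libraries had 0.326, 0.723 and 0.504 CPM. By mean, loss and regain came first, then, clear of regain, gain8, gain4, maintenance, control16, control12, initial and control8, in which all neighbours overlapped.

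Ccl4 had 5.69, 2.03 and 7.57 CPM in regain, against 0.0749, 0.239 and 0.608 CPM in control16. These groups were apart and the log2 fold change was 4.02 ± 0.78 (adjusted p = 0.0009), the largest of any member against its controls. The control16 levels rest on few reads, and without control16 library 3 the value was 4.94. In loss Ccl4 had 7.41, 1.51 and 3.44 CPM, against 0.426, 0.267 and 0.359 CPM in control12, a change of 3.54 ± 0.76 (adjusted p = 0.00269) that was 2.80 without loss library 1. In gain8 it had 0.853, 4.73 and 1.66 CPM, against 0.370, 0.184 and 0.168 CPM in control8, a change of 3.30 ± 0.77 (adjusted p = 0.00459) that was 2.37 (adjusted p = 0.0452) without gain8 library 2. Gain4, at 0.806, 1.10 and 1.10 CPM, lay clear of control16 but was not called (1.68 ± 0.74, adjusted p = 0.167). Maintenance had 0.981, 0.740 and 0.309 CPM and overlapped control16, and its value below loss, 2.59 ± 0.72 on the log2 scale (adjusted p = 0.0127), lost its call without loss library 1 (-1.86). The initial libraries had 0.217, 0.230 and 0.0336 CPM. All neighbours overlapped in the order of group means, which ran regain, loss, gain8, gain4, maintenance, control12, control16, control8 and initial. Log2 CPM of Ccl3 and Ccl4 had a correlation of 0.945 over the 27 libraries.

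Ccl5, a ligand that T and NK cells also make, was called against controls only in gain8, and differed widely between libraries within gain8 and within regain. The gain8 libraries had 8.39, 37.4 and 6.33 CPM, against 5.12, 3.78 and 3.63 CPM in control8. The groups were apart, but library 2 stood far above the other two. The log2 fold change of 2.06 ± 0.62 (adjusted p = 0.0223) was 0.82 (adjusted p = 0.342) without gain8 library 2, and was not called without control8 library 2 or 3 (1.99 in both cases) or with limma on FPKM (1.39 with a pseudocount of 1 and 1.52 with 0.1). In regain it had 20.8, 6.41 and 37.8 CPM, against 6.03, 4.78 and 12.7 CPM in control16. Library 2 lay within the controls, and the change of 1.47 ± 0.61 was not called (adjusted p = 0.0877), although it was 1.91 (adjusted p = 0.0305) without regain library 2.

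The sum of 16 T and NK cell markers was 28.1, 78.6 and 23.0 CPM in the gain8 libraries and 64.3, 23.1 and 133 CPM in the regain libraries, so the libraries highest in Ccl5 were also the highest in that sum. The sum lay between 21.5 and 24.6 CPM in control8 and between 27.4 and 45.7 CPM in control16. Of the 16 markers, 3 were called higher in gain8 and 1 in regain, where 12.0% and 12.5% of all names were called higher. In maintenance edgeR called 0 of them, and 0 had an unadjusted p under 0.05. The part of these transcripts in the Ccl5 values was not tested. In loss Ccl5 had 5.76, 9.64 and 5.62 CPM, against 3.68, 3.25 and 5.93 CPM in control12, which overlapped (0.71 ± 0.61, adjusted p = 0.430). Gain4 had 6.10, 5.72 and 6.89 CPM, maintenance 8.86, 13.5 and 3.31 CPM and the initial group 4.13, 4.21 and 3.29 CPM. In the order of means, regain, gain8, maintenance, control16, loss, gain4, control12, control8 and initial, all neighbours overlapped.

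Cxcl14 was called in loss and regain and not in gain8, although the loss effect minus the gain8 effect, 1.15 ± 0.71, did not pass the test (adjusted p = 0.852). In regain it had 16.5, 10.4 and 34.2 CPM, against 3.37, 3.96 and 4.22 CPM in control16. The groups were apart, with a log2 fold change of 2.40 ± 0.53 (adjusted p = 0.00253) that was 1.81 (adjusted p = 0.0271) without regain library 3. In loss it had 49.2, 9.91 and 11.5 CPM, against 5.26, 4.54 and 6.58 CPM in control12. These too were apart, but library 1 held most of the difference: the change of 2.10 ± 0.52 (adjusted p = 0.00709) was 0.97 (adjusted p = 0.191) without it. A model of loss and control12 alone did not call it either (2.07, adjusted p = 0.0894). In gain8 it had 8.50, 9.76 and 6.51 CPM, against 3.42, 6.17 and 3.19 CPM in control8, a change of 0.95 ± 0.51 that was not called (adjusted p = 0.184) except in a model of those groups alone (adjusted p = 0.0427). In gain4 it had 3.12, 5.48 and 4.35 CPM, with library 1 below and libraries 2 and 3 above the range of control16 (0.16 ± 0.51, adjusted p = 0.875). Maintenance had 2.94, 3.90 and 6.27 CPM and lay below loss by 2.43 ± 0.53 (adjusted p = 0.00246), a call that ended without loss library 1 (-1.29). Every loss library lay above every gain8 library, as 7.87% of all names did, by 1.51 ± 0.51, without a call (adjusted p = 0.248). The initial libraries had 3.69, 8.68 and 5.75 CPM. By mean, loss and regain lay first and regain was clear of gain8, after which came initial, control12, maintenance, gain4, control8 and control16, all overlapping their neighbours.

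**Figure D2:**
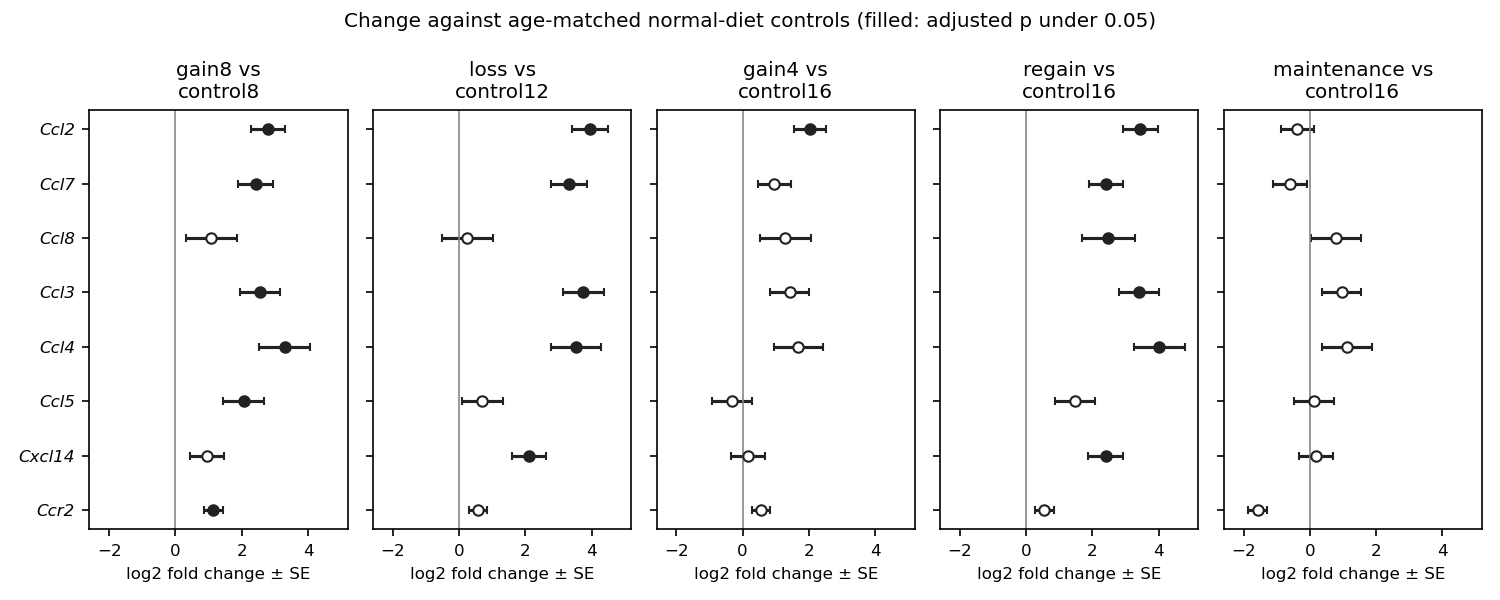
Log2 fold change with its SE (edgeR, all 27 libraries in 1 model) of each member in the 5 comparisons with age-matched controls, with filled points for calls at an adjusted p under 0.05. Ccl2, Ccl3, Ccl4 and Ccl7 lie to the right in gain8, loss and regain, and Ccr2 lies at -1.58 in maintenance.

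The receptor Ccr2, carried by classical monocytes and by the macrophages that derive from them, was called higher against controls in gain8 alone. In gain8 it had 110, 122 and 121 CPM, against 53.8, 45.8 and 60.4 CPM in control8. The groups were apart, and the log2 fold change was 1.14 ± 0.28 (adjusted p = 0.00586). In loss it had 60.2, 51.4 and 35.5 CPM, against 37.2, 26.3 and 35.6 CPM in control12, groups that overlapped (0.57 ± 0.28, adjusted p = 0.145). Set against gain8, every loss library was lower, by 1.26 ± 0.28 on the log2 scale, and edgeR did not call it (adjusted p = 0.0886). In that comparison edgeR called 0 members and 0.0786% of all names, with 2257 names at an unadjusted p under 0.05. DESeq2 called the Ccr2 difference (-1.27, adjusted p = 0.00259), as did edgeR without loss library 2 (-1.30, adjusted p = 0.0374).

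In regain Ccr2 stood at 99.8, 108 and 103 CPM, against 75.3, 79.0 and 58.1 CPM in control16. The groups were apart, but the change was 0.55 ± 0.27 and was not called (adjusted p = 0.156), save in a model of those groups alone (0.54, adjusted p = 0.0305). In gain4 the libraries had 142, 47.4 and 123 CPM, with library 2 below all of control16 and the other two above it. Its log2 fold change of 0.56 ± 0.27 (adjusted p = 0.213) was 0.90 (adjusted p = 0.0285) without gain4 library 2.

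In maintenance Ccr2 had 23.0, 29.1 and 19.1 CPM, against 75.3, 79.0 and 58.1 CPM in control16. This was the lowest group mean of all 9. Ccr2 was the only member for which every maintenance library lay below every control, as 7.55% of all names did. The log2 fold change was -1.58 ± 0.28, with an adjusted p of 0.0508. That equals the smallest adjusted p in that comparison, a value that several names can share after adjustment. It was called by DESeq2 (-1.56, adjusted p = 6e-05), with RLE scaling (-1.56, adjusted p = 0.0493) and with no filter on low counts (-1.58, adjusted p = 0.0399). It was also called without control16 library 3 (-1.70), maintenance library 1 (-1.57) or maintenance library 2 (-1.74). All of these settings kept maintenance library 3, the library rich in liver transcripts. Without that library, alone or together with loss library 1 and control12 library 3, Ccr2 was not called. Nor was it called with the replicate block, the Lars2 term, the compared groups alone or limma on FPKM. Over all libraries left out in turn the adjusted p ran from 0.00285 to 0.265. Within the libraries high in Lars2 the log2 CPM of maintenance minus control16 was -2.01 (1 library against 2), and within those low in Lars2 it was -1.16 (2 against 1).

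Ccr2 was lower in maintenance than in loss by 1.05 ± 0.28 (adjusted p = 0.00965), a call that ended without loss library 1 (-0.87, adjusted p = 0.0729). It was higher in regain than in maintenance by 2.13 ± 0.29 (adjusted p = 3.7e-05), in 3 of 3 libraries. In the initial group it had 48.0, 56.8 and 40.8 CPM. The means ran gain8, gain4, regain, control16, control8, loss, initial, control12 and maintenance, with gaps without overlap only between regain and control16 and between initial and control12.

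**Figure D3:**
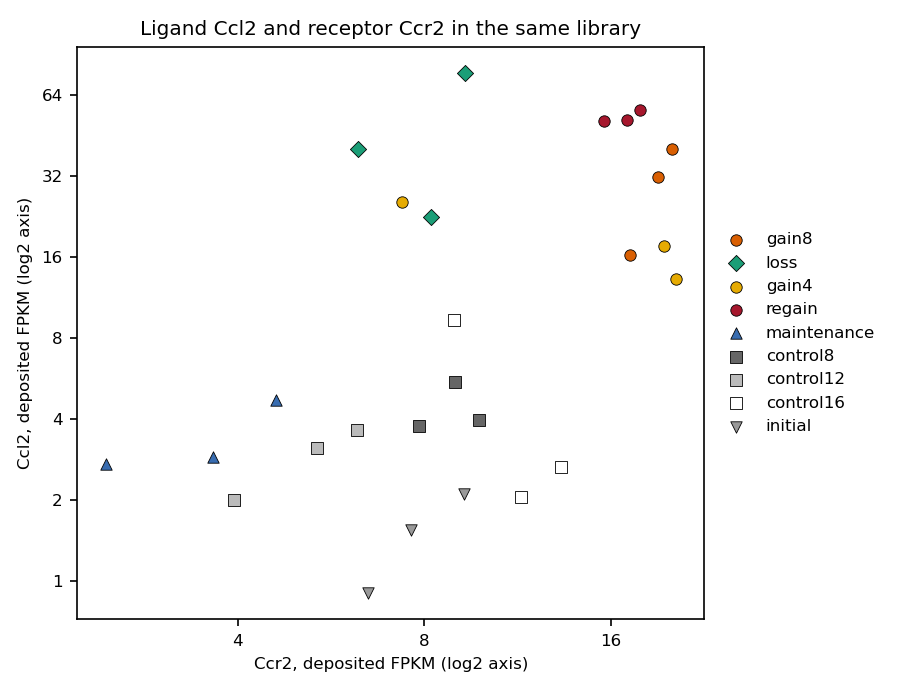
Ccl2 against Ccr2 in the 27 libraries, both as the authors' FPKM on log2 axes, with 1 point per library marked by group. Loss libraries combine 22.5 to 77 FPKM of Ccl2 with 6.26 to 9.29 FPKM of Ccr2, and gain8 libraries 16.2 to 40.3 FPKM of Ccl2 with 17.2 to 20.1 FPKM of Ccr2.

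Per length, the balance between Ccl2 and Ccr2 can be set in FPKM, the authors' counts per exonic length and library size. The ratio of Ccl2 to Ccr2 in FPKM was 2.74 to 8.29 in loss, with a median of 6.44, against 0.506 to 0.586 in control12. In gain8 it was 0.944 to 2.01, against 0.403 to 0.609 in control8, and in regain it was 3.03 to 3.26, against 0.179, 0.199 and 1.04 in control16. It exceeded its controls in every library of these 3 comparisons, and loss also lay above gain8 in every library. The log2 ratio was higher in loss than in control12 by 3.25, and in regain than in control16 by 3.24. In each case the two-sided exact permutation p was 0.1, the smallest that 3 libraries against 3 allow, for a ratio chosen after the values had been seen. Gain4, at 0.650, 3.47 and 0.898, and maintenance, at 0.792 to 1.11, overlapped control16 (exact permutation p = 0.3 in each).

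On the same FPKM scale the 7 member ligands could be ranked within a state. Outside them, Ccl6 had 219 FPKM in gain8, 254 in loss and 314 in regain. Among the 7, Ccl8 was the most abundant in gain8 with a mean of 61.2 FPKM, in gain4 with 73.7 and in regain with 179, and also in control8, control12, control16 and maintenance. In loss the leading member ligand was Ccl2 with 46.6 FPKM, followed by Ccl7 with 35.3 and Ccl8 with 18.7. Ccl3 and Ccl4 reached 10.1 and 6.43 FPKM in loss, against 0.729 and 0.531 FPKM in control12. In the initial group no mean of the 7 exceeded 4.14 FPKM, the value of Ccl5. These ranks compare group means, and the libraries of Ccl8 spread widely around its mean.

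**Figure D4:**
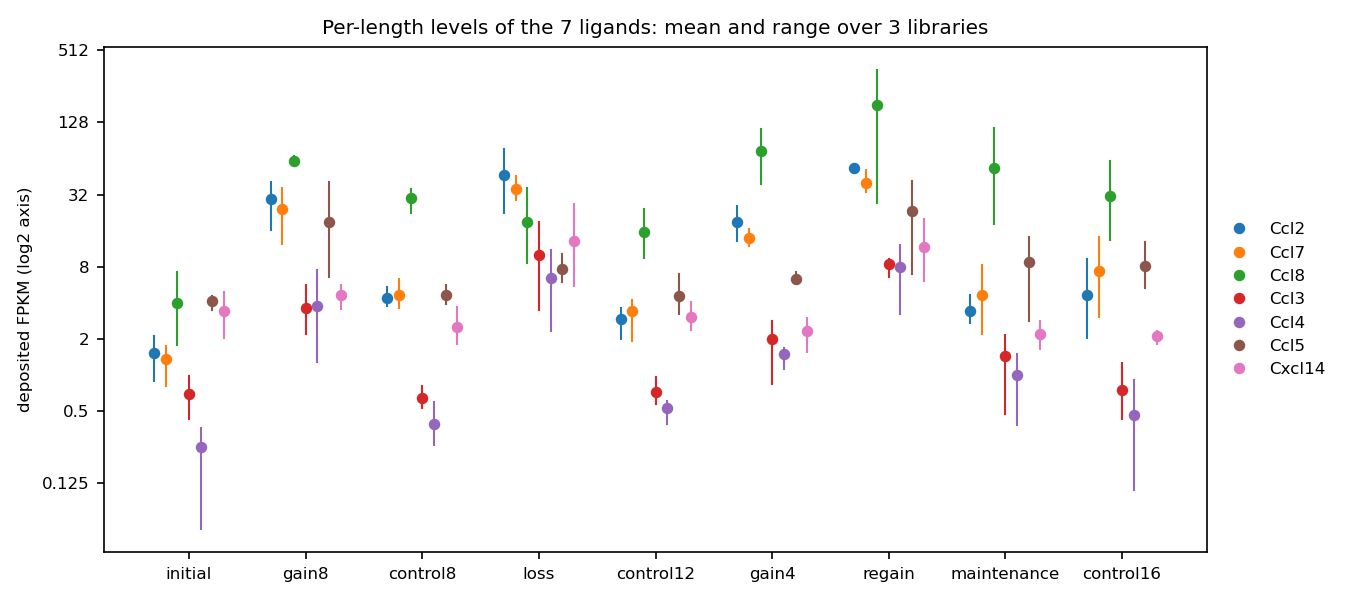
The authors' FPKM of the 7 ligands in the 9 groups on a log2 axis, with points for group means and lines for the range over 3 libraries. Ccl2 has the highest mean in loss at 46.6 FPKM, and Ccl8 in regain at 179 FPKM.

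In maintenance against loss, 6 members were lower (Ccl2, Ccl3, Ccl4, Ccl7, Cxcl14 and Ccr2), where 24.5% of all names were called and 12.9% were called lower, and all 6 lay below every loss library, as 15.2% of all names did. Without loss library 1 the number of members called was 3, and in a model of maintenance and loss alone it was 0. With each library left out in turn, 1626 to 5212 of all names were called. In regain against maintenance the same 6 were higher, where 26.9% of all names were called and 13.9% were called higher, again with no overlap between the groups, as for 17.6% of all names. Ccl5 and Ccl8 were in neither set. In regain against maintenance they had 1.34 ± 0.61 (adjusted p = 0.106) and 1.68 ± 0.78 (adjusted p = 0.112), and both were called without regain library 2 (1.77 and 2.19), Ccl8 also without maintenance library 1 (2.82).

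Regain against gain4 compared groups of the same age after 4 weeks on the high-fat diet. In regain these weeks followed an earlier high-fat period and weight loss, and the labels name no earlier diet for gain4. Ccl3 was higher in regain by 1.99 ± 0.57 (adjusted p = 0.0447) and Cxcl14 by 2.24 ± 0.52 (adjusted p = 0.0299), where 5.49% of all names were called and 4.12% were called higher. Ccl2, Ccl4 and Ccl7 were also higher in every regain library than in every gain4 library, as 14.6% of all names were, by 1.41 ± 0.48, 2.34 ± 0.71 and 1.45 ± 0.50, with adjusted p of 0.0762, 0.0539 and 0.0826. The Ccl3 call ended without gain4 library 1 (1.58) or 2 (2.30), or without regain library 1 (1.88), 2 (2.14) or 3 (1.93). That of Cxcl14 ended without gain4 library 1 (1.99) or 2 (2.45) or regain library 3 (1.64). With each library left out in turn, edgeR called 0 to 2340 of all names, so the background moved as well. DESeq2 called 6 members and a model of the compared groups alone 0. The 5.49% of all names belongs to the main edgeR model, and the shares under these other fits are not given here. With replicate number as a block only Cxcl14 was called, and Ccl3 had 1.96 (adjusted p = 0.0647). Ccr2 differed by -0.01 ± 0.27 between these groups (adjusted p = 0.993).

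Regain against loss gave 0 called members with edgeR, as it did for all names (0.00%, with 1407 names at an unadjusted p under 0.05), and 2 with DESeq2, Ccl8 and Ccr2. Ccr2 was higher in every regain library than in every loss library, as were 5.53% of all names, by 1.08 ± 0.28 (adjusted p = 0.176), and Ccl2 differed by 0.17 ± 0.47 (adjusted p = 0.983). In control8 against initial, where 0.724% of all names were called, 0 members were called with edgeR (2766 names had an unadjusted p under 0.05) and 2 with DESeq2, Ccl7 (1.73, adjusted p = 0.0333) and Ccl8 (2.89, adjusted p = 0.00813). The shares of all names that DESeq2 called in these comparisons are not given here. Ccl2, Ccl7 and Ccl8 were higher in all control8 libraries than in all initial ones, as 19.4% of all names were.

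The difference of the loss effect and the gain8 effect, each against its own controls, was 1.16 ± 0.68 for Ccl2 (adjusted p = 0.841) and -0.57 ± 0.39 for Ccr2 (adjusted p = 0.861). The gain8 effect minus the gain4 effect was 2.38 ± 0.86 for Ccl5 (adjusted p = 0.520). In both differences edgeR called 0 of 8 members and 0.00% of all names, with 1231 and 1519 names at an unadjusted p under 0.05.

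Among other chemokine genes, calls went in both directions. Of 25 tested ligands outside the members, 4 rose and 4 fell in gain8, 7 rose and 2 fell in loss, and 4 rose and 3 fell in regain, with median log2 fold changes of -0.10, 0.07 and 0.37. Of all names, 21.5%, 20.0% and 21.7% were called in these states, and 12.0%, 11.8% and 12.5% were called higher. In gain4 1 fell, where 5.82% of all names were called. In maintenance edgeR called 0, with 1 at an unadjusted p under 0.05. Ccl9, a ligand of Ccr1, had a mean of 395 ± 24.8 CPM in gain8 against 101 ± 21.1 CPM in control8 (SD, n = 3 each), a log2 fold change of 1.97 ± 0.43 (adjusted p = 0.00282), and rose also in loss (2.08) and regain (1.67). The neutrophil attractant Cxcl2 rose in gain8 (2.19 ± 0.54, adjusted p = 0.00707), loss (2.72 ± 0.55, adjusted p = 0.00158) and regain (1.98 ± 0.54, adjusted p = 0.0124), and the eotaxin Ccl24 fell in gain8 (-1.89) and regain (-1.68). Ccl12, the mouse paralog of Ccl2 that lies between Ccl7 and Ccl8, had 3.02 CPM in regain against 0.732 CPM in control16 (2.03 ± 0.79, adjusted p = 0.0682).

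Of 18 other receptors tested, 3 rose and 3 fell in gain8, 3 rose and 1 fell in loss, and 3 rose and 3 fell in regain. Of all names, 12.0%, 11.8% and 12.5% were called higher in these states. In maintenance edgeR called 0, with 3 at an unadjusted p under 0.05. Among these 3 states Ccr1 was called in loss only (2.38 ± 0.51, adjusted p = 0.0026), a call that ended without loss library 1 (1.01) or with the compared groups alone, and was 0.20 in gain8 (adjusted p = 0.800) and 0.59 in regain (adjusted p = 0.402). The difference between these Ccr1 values was not tested. The scavenger receptor Ackr4 fell in gain8 (-2.51), loss (-3.55) and regain (-3.31), the gain8 call ending without gain8 library 2 (-2.27), gain8 library 3 (-2.35) or control8 library 1 (-1.97) and the loss call without the 3 libraries standing apart (-1.95) or in a model of loss and control12 alone (-3.58), while Ackr1, the chemokine-binding protein of venous endothelium, was not called in any of the 5 comparisons with controls. The fractalkine receptor Cx3cr1 was not called either, with 1.20 in gain8 (adjusted p = 0.0873) and 1.25 in regain (adjusted p = 0.0774).

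All called genes of chemokine receptor signalling rose. Of 20 tested, 11 rose in gain8, 13 in loss and 13 in regain, with medians of 0.92, 1.06 and 1.06, where 12.0%, 11.8% and 12.5% of all names were called higher. They include the exchange factors Vav1 (1.88, 2.29 and 2.14 in these states) and Dock2 (2.47 in loss and 2.41 in regain) and the integrin chain Itgb2, which had 808 CPM in loss against 49.1 CPM in control12 (4.04 ± 0.52, adjusted p = 4.2e-05), or a log2 fold change of 2.97 without loss library 1. In gain4 and in maintenance edgeR called 0 of the 20, with 4 in each at an unadjusted p under 0.05. Of 21 regulators of chemokine transcription through NF-kappaB and interferon, 7 rose in gain8, 9 in loss and 8 in regain, beside the same shares of all names. Tnf, the cytokine that induces Ccl2 in many cells, had 5.75 CPM in loss against 0.470 CPM in control12 (3.59 ± 0.62, adjusted p = 0.000416, or 2.81 without loss library 1), and the macrophage regulator Irf5 rose in all 3 states (1.68, 2.34 and 2.01). In gain4 and in maintenance edgeR called 0 of the 21, again with 4 in each at an unadjusted p under 0.05.

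Among the cell type markers, the macrophage sum lay above its controls in gain8, loss and regain. The summed level of 18 macrophage markers was 5863, 6481 and 5852 CPM in gain8 against 1914, 1726 and 2228 CPM in control8. In loss the sum was 15814, 5780 and 5826 CPM, against 2134, 1661 and 2064 CPM in control12, and in regain it ranged from 6221 to 11356 CPM, against 2248 to 2808 CPM in control16. All libraries of these states exceeded their controls, and 11, 11 and 12 of the 18 markers rose while 3 fell in each. Of all names, 12.0%, 11.8% and 12.5% were called higher in these states. Cd68 rose by 2.84, 3.30 and 3.10 on the log2 scale and Emr1, which encodes F4/80, by 2.35, 2.70 and 2.97. In gain4 the sum was 3631, 3021 and 5701 CPM, also above all of control16, and 3 markers rose, where 3.80% of all names were called higher. In maintenance the sum was 3626, 2531 and 1002 CPM and edgeR called 0 markers, with 2 at an unadjusted p under 0.05. The median log2 fold change of the 18 there was -0.12, and 2 of them, Mertk (-0.54) and Cd163 (-1.49), lay below all control16 libraries, as 7.55% of all names did.

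**Figure D5:**
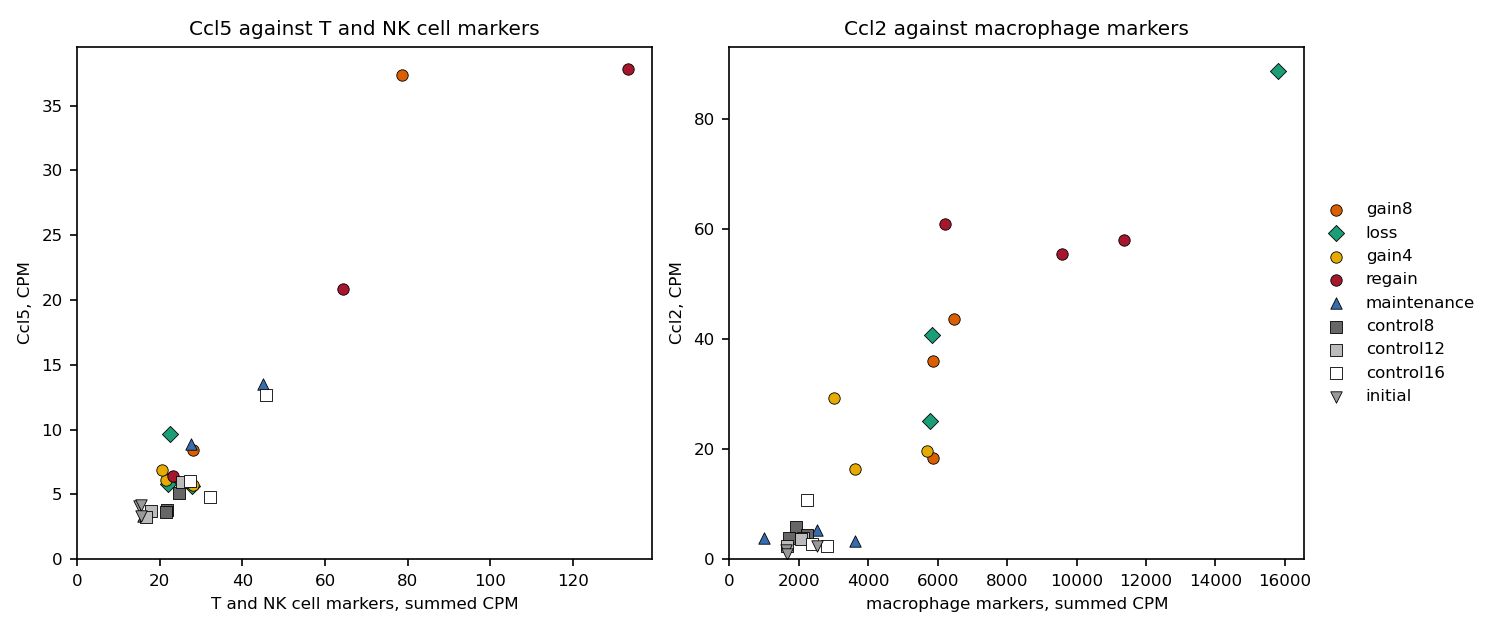
Ccl5 against the summed CPM of the 16 T and NK cell markers (left) and Ccl2 against that of the 18 macrophage markers (right), with 1 point per library marked by group, on linear axes in TMM-scaled CPM. The 3 libraries with 20.8 to 37.8 CPM of Ccl5 have marker sums of 64.3 to 133 CPM, and loss library 1 combines 88.8 CPM of Ccl2 with 15814 CPM of macrophage markers.

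The sum of 10 classical monocyte markers, the cells for which Ccr2 is a defining receptor, overlapped between each treated group given here and its age-matched controls. It was 310, 216 and 333 CPM in gain8 against 319, 238 and 369 CPM in control8, and 481, 215 and 232 CPM in loss against 269, 194 and 242 CPM in control12. Regain had 326 to 440 CPM and maintenance 172 to 312 CPM, against 290 to 360 CPM in control16, so that regain lay above maintenance in every library. Of its 10 markers 4 rose in gain8, 1 in loss, 1 in gain4, and 3 in regain. Of all names, 12.0%, 11.8%, 3.80% and 12.5% were called higher in these 4 comparisons. In maintenance edgeR called 0, with 1 at an unadjusted p under 0.05. Ly6c2, the defining surface marker, was not called in any of these (11.7 CPM in regain against 6.19 CPM in control16, adjusted p = 0.056), and Plac8 rose in regain (20.0 ± 13.1 CPM against 5.28 ± 2.14 CPM, 1.92 ± 0.46, adjusted p = 0.00475), a call that ended in a model of regain and control16 alone (1.91, adjusted p = 0.0702). Ccr2 was called higher in gain8, where this marker sum overlapped control8. Of 9 non-classical monocyte markers 1 rose and 1 fell in gain8, 3 rose in loss and 2 rose in regain, beside the same shares of all names. The sum of 12 adipocyte markers was 16435, 42633 and 27289 CPM in loss against 62567, 54098 and 35274 CPM in control12, and 37148, 29901 and 25190 CPM in regain against 53594, 40442 and 56723 CPM in control16. Adipocyte markers were thus lowest in loss library 1, the library with the highest Ccl2, Ccl3 and Cxcl14. The part of any of these cell types in the member values was not tested.

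For Ccl2, Ccl8, Cxcl14 and Ccr2 the names most alike in log2 CPM across the 27 libraries were sought among 10820 names with a mean of at least 5 CPM. For Ccl2 they were Actb (Pearson r = 0.975), Nans (0.965) and Cfl1 (0.960). For Ccl8 they were Rfc4 (0.825), Aif1 (0.820), a macrophage gene, and Zbp1 (0.813). For Cxcl14 they were Adrbk1 (0.947) and Ptpn1 (0.932), and for Ccr2 they were Emr4 (0.857), Col5a2 (0.823) and Fzd5 (0.820). Among the members the lowest correlations were those of Cxcl14 with Ccr2 (0.235) and with Ccl8 (0.250). Libraries of a group and the common scaling are shared by all points, so these are descriptions.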

How the data were processed

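The labels' protocols name a TruSeq RNA kit for the libraries. The submitters' processing notes name Trimmomatic 0.33, TopHat2 2.0.13 and HTSeq 0.6.0 as tools and mm10 (GRCm38) as the build. Raw, unnormalized reads per gene fill the deposited count table, and their sums give the depth of 26479773 to 32728594 per library. The deposited FPKM are the authors' values per exonic length and library size. Each table also holds exonic length, a deposited score column in bases per the file headers, which was not tested. Strand setting and annotation are not given in the sources used here, and overlapping genes on opposite strands are not separated. The table has 43616 rows, of which 156 repeat a name with identical values and were dropped.

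Genes were kept with edgeR's filterByExpr (minimum count 10, minimum total 15), which retained all 8 members through one filter over 27 libraries. One model fitted a mean for each group to all libraries, with TMM scaling and the quasi-likelihood test of edgeR 4.0.16 in R 4.3.3, with 18 residual degrees of freedom. P-values were adjusted by Benjamini-Hochberg over 17821 names within each of 11 comparisons of 2 groups and 2 differences of differences. For correlations and within-set values, log2 CPM took 2 as prior count.

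The alternatives tried were DESeq2 1.42.0, RLE scaling, no filter, the compared groups alone, replicate number as a block, each library left out in turn, limma 3.58.1 on the FPKM as log2(FPKM + 1) and log2(FPKM + 0.1), a term for Lars2 above or below 1000 CPM, and 3 libraries left out (maintenance 3, loss 1 and control12 3). Like-numbered libraries did not deviate together, so no pairing was used. Genes outside the members were named by rank within lists of related ligands, receptors, signalling genes, regulators and cell markers: up to 3 called genes of smallest adjusted p per list and comparison, plus a fixed few. The text names a part of these. The members and lists were chosen with earlier results of these data known. Coding bases were read from GENCODE transcripts on GRCm38. The code was tested on simulated counts. Some genes and sequences are not reported here.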

Additional observations from a re-analysis of the deposited data

Results flagged for a closer look

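Ccr2 lay on opposite sides of its controls in gain8 and maintenance. Its log2 fold change was 1.14 in gain8 over control8 (adjusted p = 0.00586, edgeR), where all 3 gain8 libraries (110 to 122 CPM) lay above all 3 controls (45.8 to 60.4 CPM), and -1.58 in maintenance over control16 (adjusted p = 0.0508, not called), where all 3 maintenance libraries (19.1 to 29.1 CPM) lay below all 3 controls (58.1 to 79.0 CPM). The difference between these effects, 2.72 on the log2 scale, was not tested, and the comparisons differ in age and diet length. In regain over control16 it was 0.55 (adjusted p = 0.156, not called), with all 3 regain libraries (99.8 to 108 CPM) above the same control16 libraries, a difference from the maintenance effect of 2.13. Because both share control16, that difference equals regain over maintenance, which was tested (edgeR log2 2.13 ± 0.29, adjusted p = 3.7e-05, higher in 3 of 3 libraries).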

How the results depend on the processing

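Like-numbered replicates correlated between -0.181 and 0.378, in 0 of 11 comparisons all above 0.1, so the numbers do not pair the samples; the replicate block took the members called in regain over gain4 to 1, where the reported number is 2, and changed no other number of members called by over 1.5 times. Numbers of members called moved further with these choices. In regain over gain4 they were 5 without the 3 libraries standing apart, 6 with DESeq2, 5 with the Lars2 term, 0 with the compared groups alone, 5 with log2(FPKM + 1) and 1 with no filter. In gain4 over control16, reported as 1, they were 2 without the 3 libraries and 0 with the compared groups alone. In maintenance over loss, reported as 6, they were 3 and 0 under the same choices. In control8 over initial, reported as 0, they were 1 without the 3 libraries, 2 with DESeq2 and 3 with the compared groups alone. DESeq2 gave 1 in loss over gain8, 1 in maintenance over control16 and 2 in regain over loss, each reported as 0, and RLE scaling and no filter gave 1 each in maintenance over control16. The shares of all names called under these choices are not given here. With each library left out in turn, the number ran from 5 to 6 in gain8, 4 to 5 in loss, 0 to 2 in gain4, 5 to 7 in regain, 0 to 1 in maintenance, 0 to 2 in loss over gain8, 3 to 6 in maintenance over loss, 0 to 3 in regain over gain4, 0 to 1 in regain over loss, 6 to 8 in regain over maintenance and 0 to 0 in control8 over initial. The number of all names called moved too over these fits. It ran from 2129 to 3289 in gain8, 1185 to 4406 in loss and 0 to 1504 in gain4. In regain it was 2248 to 3173, in maintenance 0 to 2299 and in loss over gain8 0 to 531. Maintenance over loss had 1626 to 5212, regain over gain4 0 to 2340 and regain over loss 0 to 103. Regain over maintenance had 2928 to 4961 and control8 over initial 0 to 64. The cause of these changes was not tested.

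Signs changed only for values that had not been called. Without the 3 libraries the log2 values were -0.0051 for Ccl2 in loss over gain8, 0.63 for Ccl3 and 0.91 for Cxcl14 in regain over loss, -0.48 for Ccl4 in the loss effect minus the gain8 effect, -0.41 for Ccl8 in loss and -0.15 for Cxcl14 in maintenance. With the Lars2 term they were -0.31 for Ccl5 and -0.051 for Ccr2 in control8 over initial, -0.091 for Ccl5 in maintenance and 0.14 for Ccr2 in regain over gain4. With log2(FPKM + 0.1) and log2(FPKM + 1) they were 0.039 and 0.00608 for Ccl3 in regain over loss, -0.0518 and -0.021 for Ccl5 in maintenance, and 0.23 and 0.21 for Ccr2 in regain over gain4. At the smaller pseudocount Ccl5 had -0.023 in maintenance over loss and Cxcl14 0.011 in regain over loss. With the compared groups alone, Ccl4 had too few reads to be fitted in control8 over initial. The block gave 0.00907 for Ccr2 in regain over gain4. With each library left out in turn, the values that changed sign in maintenance ran from -0.71 to 0.65 for Ccl2, -0.35 to 0.67 for Ccl5, -1.19 to 0.32 for Ccl7, -0.37 to 1.80 for Ccl8 and -0.13 to 0.37 for Cxcl14. In regain over loss they ran from -0.15 to 0.83 for Ccl2, -0.69 to 0.65 for Ccl3, -0.097 to 1.04 for Ccl4, -0.039 to 0.49 for Ccl7 and -0.81 to 0.93 for Cxcl14. Ccl5 ran from -0.58 to 0.23 in gain4, -0.070 to 0.18 in control8 over initial and -0.19 to 0.70 in maintenance over loss, Ccl8 from -0.73 to 0.60 in loss, Cxcl14 from -0.044 to 0.39 in gain4, Ccl3 from -0.40 to 0.15 in control8 over initial, and Ccr2 from -0.35 to 0.23 in regain over gain4. The gain8 effect minus the gain4 effect ran from -0.29 to 1.11 for Ccl2 and -1.20 to 0.19 for Ccl8, and the loss effect minus the gain8 effect from -0.50 to 1.17 for Ccl4.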
